A study of Mus musculus with 8 samples.

Results

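The collagen genes of pancreatic ductal adenocarcinoma (PDAC) were followed to the cells that carried their messages in 2 tumors of KPC mice, 1 of medium size (the medium tumor) and 1 of large size (the large tumor). Every row whose symbol reads Col, a number, the letter a and a number was taken, which gave 44 of the 27775 rows of each table. Both animals were untreated controls of a strain labelled KPC, in which Pdx-1-Cre, a Cre recombinase under the Pdx-1 promoter that is active in cells of the pancreatic lineage, switches on engineered alleles there, among them LSL-Trp53R172H/+. The fresh tumors were dissociated into single cells and captured on the 10x Genomics 3′ platform with v2 chemistry. Each size is 1 tumor whose 4 technical replicates share 1 table, so values are compared without tests, and tumor size cannot be told apart from the animal, the depth or the dissociation. Exact 95% intervals stand beside them and cover counting error only. The ages of the animals are not given in the sources used here.

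Collagens are triple helices built from 3 alpha chains. The fibrillar types, chiefly I, III and V, form the ropes of the extracellular matrix and are typical products of fibroblasts. Type IV forms the sheet-like network of basement membranes under epithelium and around vessels, type VI forms beaded filaments, types XV and XVIII are proteoglycans of basement membrane zones, and the FACIT types decorate the surface of fibrils. PDAC is known for a dense collagen-rich stroma.

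The medium tumor held 2812 barcodes with a median of 5456.5 unique molecular identifiers (UMIs, each standing for 1 captured message), and the large tumor 1533 barcodes with a median of 1037. Collagen rows took 15681 UMIs in the medium tumor and 1880 in the large tumor, 772 and 840 per 1000000 UMIs (CPM). Of the 44 rows, 39 had at least 1 UMI in the medium tumor and 26 in the large. Those at 0 may hold up to 0.148 CPM and 1.34 CPM, the limit that 3 UMIs set over all cells. Since 1 tag is counted per message whatever its length, CPM values of different genes were set side by side without a length correction. 5 barcodes occur in both tables.

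Cell classes came from clusters built with all collagen rows left out and named from genes that are no collagens. In the medium tumor they were epithelial-like (2331 cells, 8 clusters, with 8 to 10 of 11 markers in 7 clusters and 3 of 11 in cluster 7), monocyte/macrophage-like (239 cells), mesothelial-like (72 cells, 8 of 8 markers), fibroblast-like (71 cells, 7 of 11 markers) and endothelial-like (38 cells, 11 of 11 markers). In the large tumor they were epithelial-like (948 cells), monocyte/macrophage-like (253), fibroblast-like (49, with 5 of 11 markers) and endothelial-like (11, with 9 of 11), and no cluster was mesothelial-like. The epithelial markers do not tell carcinoma cells from other epithelium, so the carcinoma share is given as that of the epithelial-like cells. Clusters 4 and 8 of the large tumor were led by genes of the intestinal lining such as Fabp1 and Zg16. 61 cells of the medium tumor carried epithelial and macrophage markers together and stayed unnamed, as did cluster 1 of the large tumor (272 cells), which met the thresholds for 2 of 11 epithelial markers. The fibroblast-like cluster of the medium tumor also held 6 of 10 smooth muscle and pericyte markers, the mesothelial-like cluster 5 of 11 fibroblast markers and the endothelial-like cluster 4 of 11 epithelial markers. The part of epithelial messages in the endothelial-like Col18a1 and Col27a1 levels was not tested.

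Fibroblast-like cells had by far the highest collagen level, yet in the medium tumor the far more numerous epithelial-like cells supplied the larger share of the messages. There the epithelial-like cells gave 43.7% of all collagen UMIs (42.9% to 44.5%), the fibroblast-like cells 38.0% (37.3% to 38.8%), the mesothelial-like cells 12.3% (11.8% to 12.8%) and the endothelial-like cells 4.48% (4.16% to 4.82%). Fibroblast-like cells made up 2.52% of the barcodes and epithelial-like cells 82.9%, so that the share of collagen was 15.1 times the share of cells in the first class and 0.527 times in the second. Fibroblast-like cells of the large tumor gave 56.6% (54.4% to 58.9%), epithelial-like cells 25.6% (23.7% to 27.7%), the unnamed cluster 14.1% (12.6% to 15.8%) and endothelial-like cells 1.86% (1.30% to 2.58%). At a resolution of 0.4, with 20 principal components or with collagen genes kept in the clustering no cell of the large tumor was unnamed, and the epithelial-like share was 39.0% to 39.7%. The order of the 2 classes depended on the processing. In the medium tumor, with each cell thinned to 2500 UMIs, which kept all 2812 cells, fibroblast-like cells led with 47.4% against 31.9%, and with the macrophage level subtracted with 41.7% against 39.5%. Without cluster 7 the fibroblast-like share was 40.2% and the epithelial-like share 40.5%. With each cell classed on its own markers 43 and 24 cells were fibroblast-like, with shares of 21.8% in the medium and 29.6% in the large tumor. The epithelial-like shares were then 48.9% and 30.9%, so that the order of the large tumor turned as well.

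As a level, collagen took 16086 CPM of the fibroblast-like cells (15680 to 16499), 5020 of the mesothelial-like (4799 to 5250), 2984 of the endothelial-like (2768 to 3213) and 379 of the epithelial-like cells (370 to 388) of the medium tumor. The macrophage-like cells held 117 CPM (95.9 to 141), of which 44.4 CPM were fibrillar. They should lack fibrillar collagen and serve as the background gene by gene, except for Col14a1, which gave 38 of their 108 collagen UMIs. For the large tumor the fibroblast-like level was 15751 CPM (14820 to 16727), the endothelial-like 2191 (1526 to 3046), the epithelial-like 318 (290 to 347) and the macrophage-like 168 (116 to 236), where 13 of 33 UMIs were fibrillar and 13 were Col14a1. Every fibroblast-like cell of both tumors had a collagen UMI, with a median of 71 per cell in the medium and 17 in the large tumor. The 4 classes named in both tumors stood in the same order, with fibroblast-like cells first and macrophage-like cells last. With each cell classed on its own, the endothelial-like level of the medium tumor was 6398 CPM, more than 1.5 times the value by cluster.

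By structural group, the 11 fibrillar rows held 8289 UMIs of the medium tumor, of which 58.0% were fibroblast-like, 21.1% epithelial-like and 19.3% mesothelial-like. They made up 80.7% of the collagen UMIs of fibroblast-like cells, 83.1% of those of mesothelial-like cells and 25.6% of those of epithelial-like cells. The 9 network rows (types IV, VIII and X) held 2609 UMIs and made up 71.6% of the collagen of endothelial-like cells. The 2 multiplexin rows (types XV and XVIII) held 3152 UMIs, 89.9% of them epithelial-like. The 6 beaded filament rows (type VI) held 728 UMIs, 51.5% epithelial-like, 24.0% fibroblast-like and 21.7% mesothelial-like, and the 9 FACIT rows 754 UMIs, 65.6% epithelial-like. In the large tumor, too, fibrillar rows made up most of the fibroblast-like (89.2%) and network rows most of the endothelial-like collagen UMIs (68.6%), and 65.1% of the 370 multiplexin UMIs were epithelial-like. The beaded filament rows differed, with 29 of 40 UMIs fibroblast-like and 4 epithelial-like there, and of 62 FACIT UMIs 24 were fibroblast-like, 22 epithelial-like and 13 macrophage-like.

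Among the genes, 4 carried most of the signal: Col18a1, Col3a1, Col1a2 and Col1a1 held 58.6% of the collagen UMIs of the medium tumor and 68.3% of those of the large. They came from opposite sources, as the plot of each gene's source shows.

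**Figure D1:**
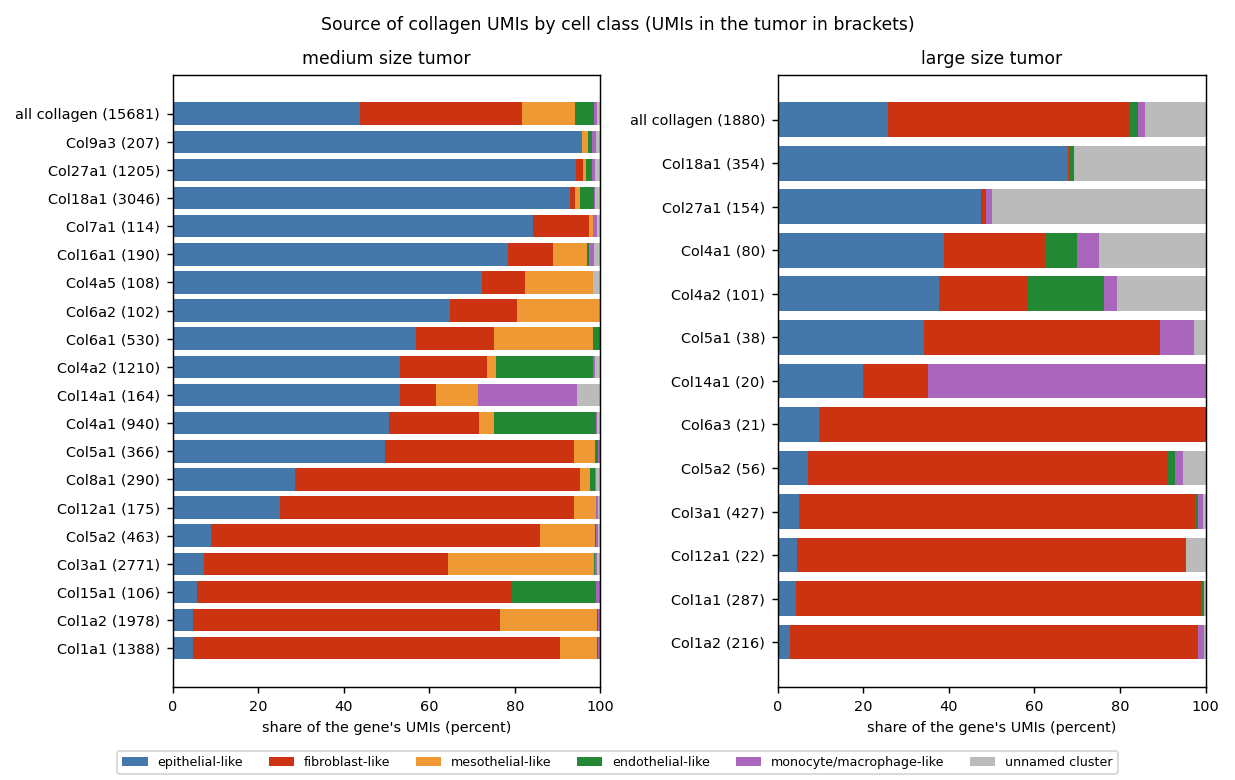
Share of the UMIs of each described collagen gene (horizontal axis, percent) that came from each cell class, in the medium tumor (left, genes with at least 100 UMIs) and the large tumor (right, genes with at least 20 UMIs), with the number of UMIs in brackets. Bars at the top with mostly epithelial-like signal, such as Col18a1 (92.8% in the medium tumor), stand against bars at the bottom with mostly fibroblast-like signal, such as Col1a1 (86.0%).

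The fibrillar genes of types I and III had most of their UMIs in fibroblast-like and mesothelial-like cells. Col1a1 (chromosome 11, 94936224-94953042, GRCm38), the first chain of type I collagen, had 1388 UMIs in the medium tumor, of which 86.0% (84.0% to 87.7%) lay in fibroblast-like and 8.72% in mesothelial-like cells. Its level was 3219 CPM in fibroblast-like, 315 in mesothelial-like and 3.54 in epithelial-like cells. Col1a2 (chromosome 6, 4504814-4541544), the second chain, had 71.8% of 1978 UMIs in fibroblast-like and 22.6% in mesothelial-like cells, at 3834 and 1163 CPM. Col3a1 (chromosome 1, 45311538-45349706), the single chain of type III collagen, had 57.1% of 2771 UMIs in fibroblast-like and 34.0% in mesothelial-like cells, at 4271 and 2452 CPM. Fibroblast-like cells of the large tumor held 94.8% of 287 Col1a1 UMIs, 95.4% of 216 Col1a2 UMIs and 93.0% of 427 Col3a1 UMIs. With each cell classed on its own the fibroblast-like shares of Col1a1, Col1a2 and Col3a1 were 45.7%, 45.7% and 35.1% in the medium and 48.1%, 50.5% and 52.2% in the large tumor.

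The mesothelial-like cells thus differed from the fibroblast-like cells by gene, not by 1 common factor. The fibroblast-like level was 10.2 times the mesothelial-like one for Col1a1 (8.47 to 12.4), 3.30 times for Col1a2 (2.96 to 3.67) and 1.74 times for Col3a1 (1.61 to 1.89). Put as chains within a class, there were 7.79 Col3a1 UMIs for each Col1a1 UMI in mesothelial-like cells (6.44 to 9.49) and 1.33 in fibroblast-like cells (1.23 to 1.43). The Col1a2 to Col1a1 ratio was 3.69 (3.02 to 4.55) against 1.19 (1.10 to 1.29). At the coarser cluster resolution of 0.4 both classes fell into 1 unnamed cluster of 143 cells, so the contrast rests on the finer clustering and on the mesothelial markers.

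Type V collagen, which sits inside type I fibrils and governs their width, split by chain. Col5a2 (chromosome 1, 45374321-45503282), which lies 24614 bases from Col3a1 on the opposite strand, had 77.1% of 463 UMIs in fibroblast-like cells at 963 CPM and 8.86% in epithelial-like cells at 2.27 CPM. With each cell classed on its own the fibroblast-like share was 44.5%. Col5a1 (chromosome 2, 27886425-28039514) had 44.0% of 366 UMIs in fibroblast-like cells at 434 CPM and 49.7% in epithelial-like cells at 10.1 CPM. The ratio of Col5a2 to Col5a1 was 2.22 in fibroblast-like cells (1.84 to 2.69) and 0.225 in epithelial-like cells (0.156 to 0.318) of the medium tumor, and 2.24 (1.31 to 3.94) against 0.308 (0.0731 to 0.996) in the large, where the epithelial-like value rests on 4 and 13 UMIs. Col11a1, a chain of the minor fibrillar type XI, had all of its 53 UMIs in 21 fibroblast-like cells of the medium tumor, at 143 CPM. This was 950-fold higher than in the other cells when these are set at the limit of 3 UMIs, and the exact lower limit of the ratio was 746. The large tumor held 2 UMIs of it, neither in a fibroblast-like cell.

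For types I and III the small epithelial-like level could not be told from the background. Epithelial-like cells held 0.467 times the macrophage-like level of Col1a1 (0.214 to 1.21), 0.686 times that of Col1a2 (0.320 to 1.75), 0.864 times that of Col3a1 (0.484 to 1.70) and 1.05 times that of Col5a2 (0.272 to 8.94). After thinning, 0.729% of epithelial-like and 0.837% of macrophage-like cells had a Col1a1 UMI, and 2.45% and 3.77% a Col3a1 UMI (2.23% and 2.09%, and 6.56% and 5.02%, before thinning), at median depths of 5972 and 3511 UMIs. These shares were at or near the background share. The UMIs were not spread alike, since single epithelial-like cells held up to 8 Col1a1, 13 Col1a2 and 23 Col3a1 UMIs and single macrophage-like cells up to 3, 1 and 1, and what these few cells are was not tested.

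Several other genes of the medium tumor stood above that background in epithelial-like cells. Their level was 13.1 times the macrophage-like one for Col18a1 (7.33 to 26.3), 8.11 times for Col4a1 (2.76 to 39.5), 6.45 times for Col27a1 (3.39 to 14.1), 5.47 times for Col4a2 (2.50 to 14.95), 5.06 times for Col9a3 (1.38 to 42.1), 4.65 times for Col5a1 (1.27 to 38.7) and 3.81 times for Col16a1 (1.04 to 31.7). Col6a1 had 301 UMIs in epithelial-like cells and 0 in macrophage-like cells, which makes its level 5.13-fold higher when the macrophage-like cells are set at the limit of 3 UMIs. For Col7a1, Col8a1 and Col12a1 the intervals reached below 1. Of the 5 collagen genes with at least 20 UMIs in these 2 classes of the large tumor, Col18a1 (10.3-fold at the limit of 3 UMIs) and Col27a1 (4.72 times, 1.26 to 39.7) were above it. Col4a1 stood at 20.4 CPM in both classes (ratio 1.00, 0.354 to 3.91) and Col4a2 at 1.64 times (0.520 to 8.29), while Col3a1 stood at 0.679 times the macrophage-like level (0.229 to 2.72).

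**Figure D2:**
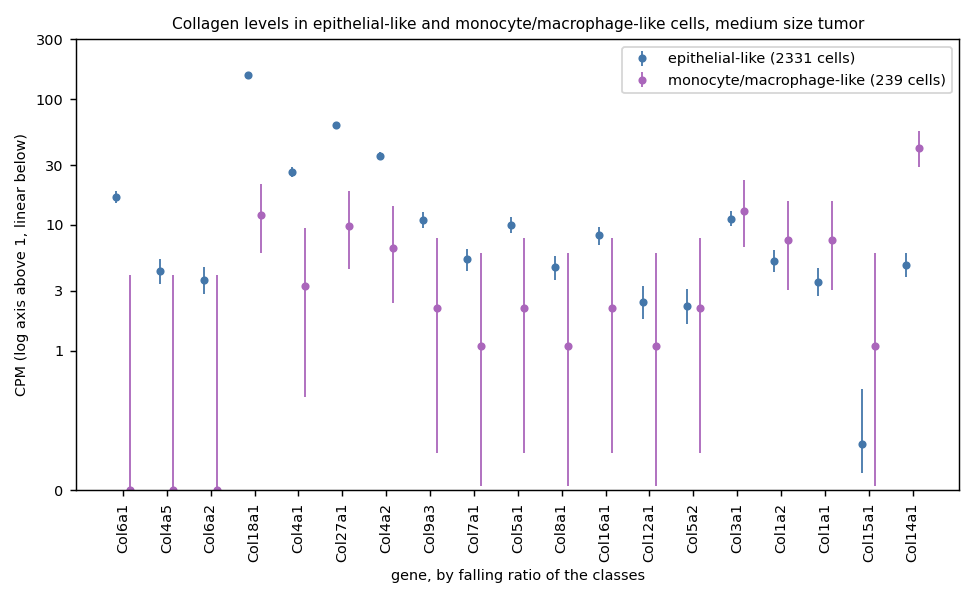
CPM of the collagen genes with at least 100 UMIs in the medium tumor (vertical axis, log scale above 1 and linear below) in epithelial-like (blue) and monocyte/macrophage-like (purple) cells, with exact 95% Poisson intervals. Col18a1 lies at 156 against 11.9 CPM on the left side, Col1a1, Col1a2 and Col3a1 overlap, and Col14a1 is reversed on the right at 4.81 against 41.1 CPM.

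Col18a1 (chromosome 10, 77052178-77166548), the proteoglycan chain from which endostatin is cut, was the most abundant collagen message of the medium tumor. Epithelial-like cells held 92.8% of its 3046 UMIs (91.8% to 93.7%) and 67.8% of its 354 UMIs in the large tumor (62.7% to 72.6%). Another 30.8% of the UMIs of the large tumor lay in its unnamed cluster 1, at 247 CPM (203 to 298). Over the alternative settings the epithelial-like share of the large tumor ran from 61.5% to 98.6%. With that cluster left unnamed, the epithelial-like level was 156 CPM (151 to 162) in the medium and 158 CPM (139 to 179) in the large tumor, a ratio of 1.01 (0.883 to 1.15). After thinning, 26.6% of epithelial-like and 1.67% of macrophage-like cells of the medium tumor had a UMI (49.9% and 3.35% before). Endothelial-like cells were higher still per cell at 416 CPM (338 to 507), 2.66 times the epithelial-like level (2.15 to 3.25), but being few they held 3.22% of the UMIs. Of the 37 Col18a1 UMIs of the fibroblast-like cluster, 20 came from the 6 cells with at least 4 of 7 mural markers (Rgs5, Des, Cspg4, Notch3, Kcnj8, Abcc9 and Myh11), at 653 CPM (399 to 1009), whereas its other 65 cells had 17 UMIs (29.1 to 80.0 CPM). These 6 cells, picked after their values were seen, also held less Col3a1 than the other 65, at 1404 CPM (1016 to 1892) against 4529 (4306 to 4761).

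The epithelial-like clusters of the medium tumor did not share 1 Col18a1 level. It was highest in cluster 6, led by Krt17, Cldn4 and Tnc, at 343 CPM (316 to 372) and in cluster 1, led by the gastric genes Gkn1 and Gkn2, at 220 CPM (204 to 236). It was lowest in cluster 8, led by Dmbt1 and Lcn2, at 37.9 CPM (27.9 to 50.2). The cluster of the large tumor led by Gkn2 and Tff1 was again high for Col18a1, at 264 CPM (208 to 330), and the intestinal-gene cluster 4 low at 10.5 CPM (1.28 to 38.1). The heat map by cluster shows these differences.

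**Figure D3:**
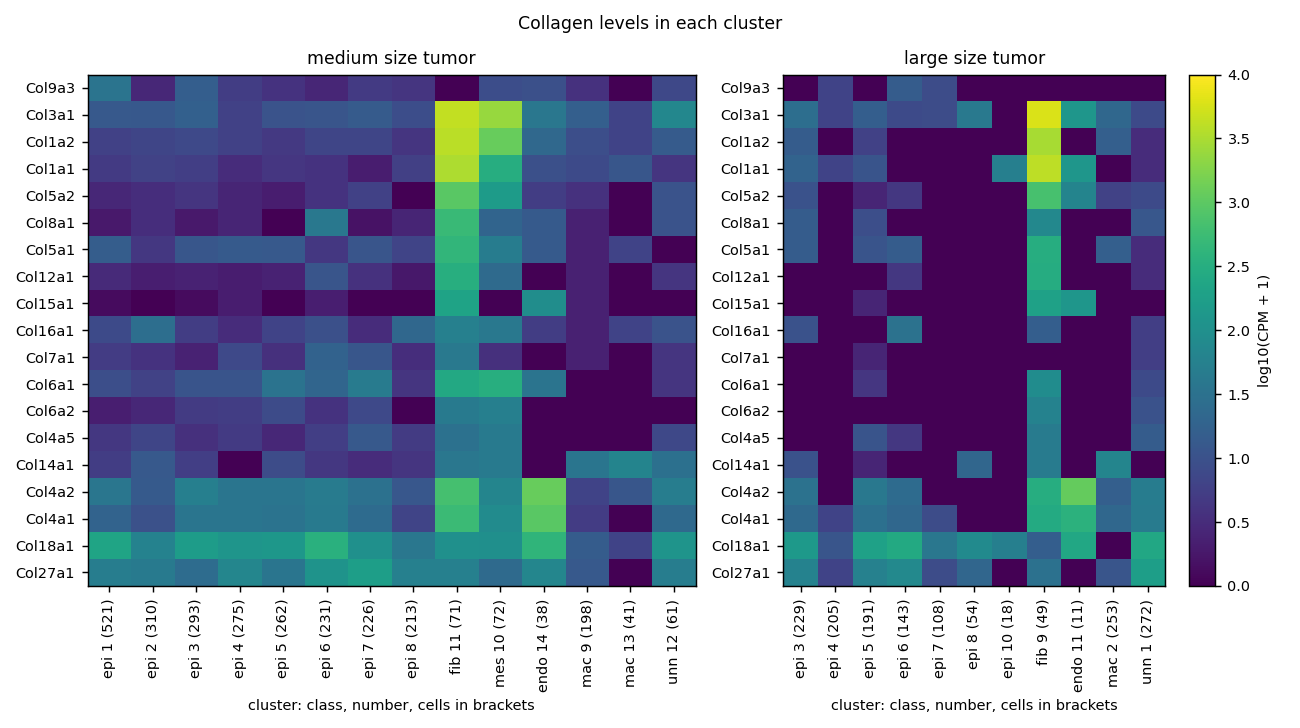
Level of each collagen gene with at least 100 UMIs in the medium tumor (rows) in every cluster (columns, with class, number and cells), as log10(CPM + 1), for the medium (left) and the large tumor (right). Types I, III and V are bright in the fibroblast-like columns and in the mesothelial-like column of the medium tumor, Col4a1 and Col4a2 in the endothelial-like columns, and Col18a1 and Col27a1 across epithelial-like columns. Small clusters of the large tumor hold few UMIs, so a dark cell there can be a count of 0.

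Col27a1 (chromosome 4, 63214004-63334991), a fibrillar chain best known from cartilage, did not follow the other fibrillar genes. Epithelial-like cells held 94.3% of its 1205 UMIs in the medium tumor (92.8% to 95.5%) at 62.8 CPM (59.2 to 66.6). The levels of the few endothelial-like cells, 67.9 CPM (38.8 to 110) from 16 UMIs, and of the fibroblast-like cells, 54.0 CPM (33.0 to 83.3) from 20 UMIs, could not be told from it by their intervals. Among epithelial-like clusters it peaked in cluster 7, led by Inhba, Bmp2 and Mmp10, at 175 CPM (157 to 196) and was lowest in the proliferating cluster 3, led by Ube2c and Top2a, at 24.8 CPM (19.8 to 30.6). Of its 154 UMIs in the large tumor 77 lay in the unnamed cluster 1 at 174 CPM (138 to 218) and 47.4% in epithelial-like cells at 48.1 CPM (37.7 to 60.5), a 3.62-fold difference (2.60 to 5.06). With each cell classed on its own 25.3% of its UMIs lay in unnamed cells. Cluster 7 of the medium and cluster 1 of the large tumor both held few epithelial markers, and both had Ggct among their leading genes. Cluster 1 of the large tumor also shared a leading gene, Prkg2, with cluster 5 of the medium tumor, which was led by Yap1 and Birc2 and held 8 of 11 epithelial markers. Col27a1 was the 1 collagen gene at least 4-fold higher in that unnamed cluster, where 1.08% of all genes with at least 50 UMIs were.

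Since most UMIs of Col3a1 lay in fibroblast-like and mesothelial-like, of Col27a1 in epithelial-like and of Col8a1 in fibroblast-like cells of the medium tumor, the 250 bases before their RefSeq starts (GRCm38.p6, 5′ to 3′ on the strand of the gene) are shown. Capitals mark the motifs searched for on both strands, none of which overlap here. The TATA box is spelled TATAAA, the CCAAT box as its name says, and the GC box GGGCGG. The Col27a1 window lies inside the longer GENCODE gene.
Col3a1, chr1:45311288-45311537, plus strand: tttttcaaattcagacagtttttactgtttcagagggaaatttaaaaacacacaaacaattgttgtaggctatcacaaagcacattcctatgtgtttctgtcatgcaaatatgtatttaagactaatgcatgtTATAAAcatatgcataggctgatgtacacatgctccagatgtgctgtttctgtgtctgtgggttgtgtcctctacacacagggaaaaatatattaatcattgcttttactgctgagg
Col27a1, chr4:63215162-63215411, plus strand: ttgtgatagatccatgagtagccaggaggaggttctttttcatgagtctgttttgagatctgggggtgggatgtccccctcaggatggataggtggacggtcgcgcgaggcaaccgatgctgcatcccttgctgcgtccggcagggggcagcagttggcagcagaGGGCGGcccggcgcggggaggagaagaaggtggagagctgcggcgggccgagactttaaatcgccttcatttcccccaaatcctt
Col8a1, chr16:57754738-57754987, minus strand: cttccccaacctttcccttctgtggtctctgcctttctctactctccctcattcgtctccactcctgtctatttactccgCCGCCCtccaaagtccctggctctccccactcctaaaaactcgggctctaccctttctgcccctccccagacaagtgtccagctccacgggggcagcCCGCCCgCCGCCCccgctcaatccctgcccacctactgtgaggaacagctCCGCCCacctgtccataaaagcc
The Col3a1 window held 1 TATA box and no GC box, the Col27a1 window 1 GC box and no TATA box, and the Col8a1 window 4 GC boxes. Over the 38 windows found for 35 of the 44 collagen rows, 5 held a TATA box, 13 a CCAAT box and 22 a GC box. Of all 32851 windows of that length, 12.4% held a TATA box, 33.8% a CCAAT box and 32.7% a GC box. The letters are a description and not a test of binding.

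For type IV collagen the class with the highest level was not the class with the largest share. Col4a1 (chromosome 8, 11198423-11312826, minus strand) and Col4a2 (chromosome 8, 11312805-11449287, plus strand) encode the 2 chains of the common basement membrane network and start head to head, with 22 bases in common at chr8:11312805-11312826.
Shared start, plus strand: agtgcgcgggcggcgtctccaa
Endothelial-like cells of the medium tumor had the highest levels, 951 CPM for Col4a1 (830 to 1084) and 1167 for Col4a2 (1033 to 1314). Fibroblast-like cells followed at 534 and 666 CPM, and epithelial-like cells had 26.3 and 35.5 CPM. By share, epithelial-like cells nevertheless held 50.6% of 940 Col4a1 UMIs and 53.1% of 1210 Col4a2 UMIs, endothelial-like cells 23.8% and 22.7%, and fibroblast-like cells 21.1% and 20.4%. The Col4a2 to Col4a1 ratio was close in the 3 classes, 1.35 in epithelial-like (1.196 to 1.52), 1.25 in fibroblast-like (1.03 to 1.51) and 1.23 in endothelial-like cells (1.03 to 1.47). The endothelial-like level of Col4a2 in the large tumor was 1127 CPM (668 to 1780) and that of Col4a1 376 CPM (138 to 817), from 18 and 6 UMIs in 11 cells. Col4a5 (chromosome X, 141475385-141689234), a chain of a second type IV network, had 72.2% of 108 UMIs in epithelial-like cells at 4.31 CPM and 15.7% in mesothelial-like cells at 44.2 CPM.

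Col15a1 (chromosome 4, 47208161-47313167), the close relative of Col18a1, had the opposite source. Of its 106 UMIs in the medium tumor 73.6% lay in fibroblast-like cells at 210 CPM, 19.8% in endothelial-like cells at 89.1 CPM and 5.66% in epithelial-like cells at 0.332 CPM, and none in mesothelial-like cells. For each Col18a1 UMI there were 2.11 Col15a1 UMIs in fibroblast-like cells (1.41 to 3.21) and 0.00212 in epithelial-like cells (0.000778 to 0.00463). Of its 16 UMIs in the large tumor 13 were fibroblast-like. The shares of Col15a1 and Col12a1 in fibroblast-like cells were 37.7% and 40.6% in the medium tumor with each cell classed on its own.

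Col8a1 (chromosome 16, 57624258-57754737), a short network-forming chain found around vessels, had 66.6% of 290 UMIs in fibroblast-like cells at 521 CPM (450 to 600) and 28.6% in epithelial-like cells. Within the epithelial-like cells 67 of its 83 UMIs lay in cluster 6, at 38.6 CPM (29.9 to 48.98), whereas the other 7 clusters lay between 0 and 2.33 CPM. The Krt17-led cluster 6 was therefore the epithelial-like cluster with the most Col8a1 as well as the most Col18a1, and for all collagen rows together (all collagen) its level was 684 CPM (645 to 724) against 177 to 463 CPM in the others. Col10a1, which marks growth cartilage, had 34 of its 37 UMIs in a single fibroblast-like cell.

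The type VI genes, whose filaments link cells to the surrounding matrix, were shared by epithelial-like, mesothelial-like and fibroblast-like cells. Col6a1 (chromosome 10, 76708792-76726168) had 56.8% of 530 UMIs in epithelial-like cells at 16.7 CPM, 23.2% in mesothelial-like cells at 320 CPM and 18.3% in fibroblast-like cells at 262 CPM, the last pair of levels differing by a ratio of 0.818 (0.620 to 1.08). Its neighbour Col6a2 (chromosome 10, 76595762-76623630) had 64.7%, 19.6% and 15.7% of 102 UMIs in the same order. Col6a3 (chromosome 1, 90765923-90843971), the third chain of the filament, was instead 70.5% fibroblast-like among 88 UMIs, at 167 CPM against 0.387 in epithelial-like cells. The ratio of Col6a3 to Col6a1 was accordingly 0.639 in fibroblast-like cells (0.457 to 0.888), 0.0813 in mesothelial-like cells (0.0380 to 0.155) and 0.0233 in epithelial-like cells (0.00927 to 0.0485). Fibroblast-like cells of the large tumor held 19 of 21 Col6a3 UMIs, at 281 CPM, or 42.9% of them with each cell classed on its own. Epithelial-like Col6a1 was 16.7 CPM in the medium and 1.32 CPM in the large tumor, a ratio of 0.0792 (0.00954 to 0.288) that rests on 301 and 2 UMIs.

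Of the remaining types, Col7a1 (chromosome 9, 108953586-108984875), the anchoring fibril that ties epithelium to its stroma, had 84.2% of 114 UMIs in epithelial-like cells at 5.31 CPM but a higher level, 40.5 CPM (22.7 to 66.7), in fibroblast-like cells. Col9a3 (chromosome 2, 180597790-180622189), a FACIT chain of cartilage, was 95.7% epithelial-like among 207 UMIs, and 115 of its UMIs lay in the Gkn1-led cluster 1 at 33.4 CPM (27.5 to 40.1). Of the 21 collagen genes with at least 50 UMIs it was the 1 whose highest level lay in epithelial-like cells (17.9% of all genes with as many UMIs did), and it had 0 UMIs in fibroblast-like cells. Of the others 12 were highest in fibroblast-like cells (17.3% of all genes), 4 in mesothelial-like (13%) and 4 in endothelial-like cells (23.4%). Col16a1 (chromosome 4, 130047840-130099283) was 78.4% epithelial-like among 190 UMIs at 8.24 CPM, with 54.0 CPM in fibroblast-like and 39.0 CPM in mesothelial-like cells. Col12a1 (chromosome 9, 79598991-79718831), which coats type I fibrils, was 68.6% fibroblast-like among 175 UMIs at 324 CPM, and 20 of 22 UMIs were fibroblast-like in the large tumor (54.5% with each cell classed on its own). Its fibroblast-like level there was 296 CPM (181 to 457).

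Col14a1 (chromosome 15, 55307750-55520803), a FACIT chain of soft connective tissue, was the 1 collagen gene at least 4-fold higher in macrophage-like cells of the medium tumor, a size that 4.89% of all genes reached. Its level was 41.1 CPM (29.1 to 56.5) in macrophage-like cells, 41.6 in mesothelial-like, 37.8 in fibroblast-like and 4.81 in epithelial-like cells, and 6.33 times that of all other cells for the macrophage-like class. By share, however, epithelial-like cells of the medium tumor held 53.0% of its 164 UMIs (45.1% to 60.9%) and macrophage-like cells 23.2% (16.9% to 30.4%). Macrophage-like cells of the large tumor held 13 of its 20 UMIs, at 66.3 CPM (35.3 to 113), 19.3 times the level of the other cells. Both macrophage-like clusters of the medium tumor held it, at 35.4 CPM (23.1 to 51.8) in cluster 9 and 63.5 CPM (32.8 to 111) in cluster 13. The same clusters had 11 UMIs and 1 UMI of Col3a1. The macrophage-like cells are therefore no background for Col14a1.

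The other rows were sparse. Of the 44 rows of the medium tumor, 5 had no UMI, 13 had 1 to 9, 5 had 10 to 49 and 2 had 50 to 99. Col13a1, a transmembrane collagen, had 19 of its 20 UMIs in endothelial-like cells, at 80.7 CPM (48.6 to 126). For the large tumor 18 rows had no UMI, 9 had 1 to 9 and 9 had 10 to 49.

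Against the rest of their tumor, collagen genes were described by a fixed size of 4-fold in CPM among genes with at least 50 UMIs, which 21 of the 44 collagen rows reached in the medium and 8 in the large tumor. A row that reached this number because 1 class was rich in it had to differ, so the counts describe these rows alone. In fibroblast-like cells of the medium tumor 18 of the 21 were at least 4-fold higher (4.47% of all such genes were). In mesothelial-like cells 10 were higher (3.83% of all), in endothelial-like cells 4, namely Col4a1, Col4a2, Col15a1 and Col6a3 (3.48%), and in epithelial-like cells none (3.11%). The endothelial-like Col6a3 value rests on 9 UMIs in 3 cells, of which 1 cell held 7. In epithelial-like cells 15 of the 21 were at least 4-fold lower, against 6.43% of all genes. For the large tumor 6 of the 8 were higher in fibroblast-like cells (2.05% of all genes), 2 in endothelial-like cells, again Col4a1 and Col4a2 (4.97%), and none in epithelial-like cells (4.91%), where 4 were lower (3.31%). The median log2 ratio of the 21 rows in fibroblast-like cells was 3.81, against -0.17 over all genes tested, with 1 CPM added to both levels.

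The fibroblast-like cells of the tumors had close collagen totals but not the same mixture. Their clusters also differed in markers, with 6 of 10 smooth muscle and pericyte markers in the medium and 2 of 10 in the large tumor. Fibroblast markers stood at 7 and 5 of 11. Whether the gene differences lie within 1 cell type was not tested. From the medium to the large tumor Col3a1 went from 4271 to 5872 CPM, a ratio of 1.37 (1.23 to 1.54), and Col1a1 from 3219 to 4023 CPM, 1.25 (1.09 to 1.43). Col1a2 went from 3834 to 3047 CPM, 0.795 (0.683 to 0.920), so that there were 1.19 Col1a2 UMIs per Col1a1 UMI in the medium and 0.757 (0.629 to 0.911) in the large tumor. Col8a1 had the lowest ratio among genes with UMIs in both, 0.142 (0.0456 to 0.337), from 193 and 5 UMIs. Col4a1, Col4a2 and Col6a1 had ratios of 0.526 (0.310 to 0.844), 0.466 (0.283 to 0.728) and 0.339 (0.121 to 0.765), whereas Col12a1 and Col15a1 both stood at 0.914 with intervals that held 1. For Col11a1, 53 UMIs stood against 0, a level 3.22-fold lower in the large tumor when that is set at the limit of 3 UMIs. Its intervals were 107 to 187 CPM in the medium and 0 to 54.6 CPM in the large tumor. The 6 cells called mural were all in the medium tumor, and they held 37 of its 247 fibroblast-like Col4a2 UMIs. The call needed several markers in a single cell. Fibroblast-like cells had a median of 4507 UMIs in the medium and 1219 in the large tumor, so mural cells of the large tumor may have been missed. Without the 6 cells the Col4a1, Col4a2 and Col8a1 levels of the medium tumor were 491, 618 and 541 CPM. The large tumor, from which no cell was taken out, had 281, 311 and 74.0 CPM. The tumors were thus not compared with mural cells removed from both.

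**Figure D4:**
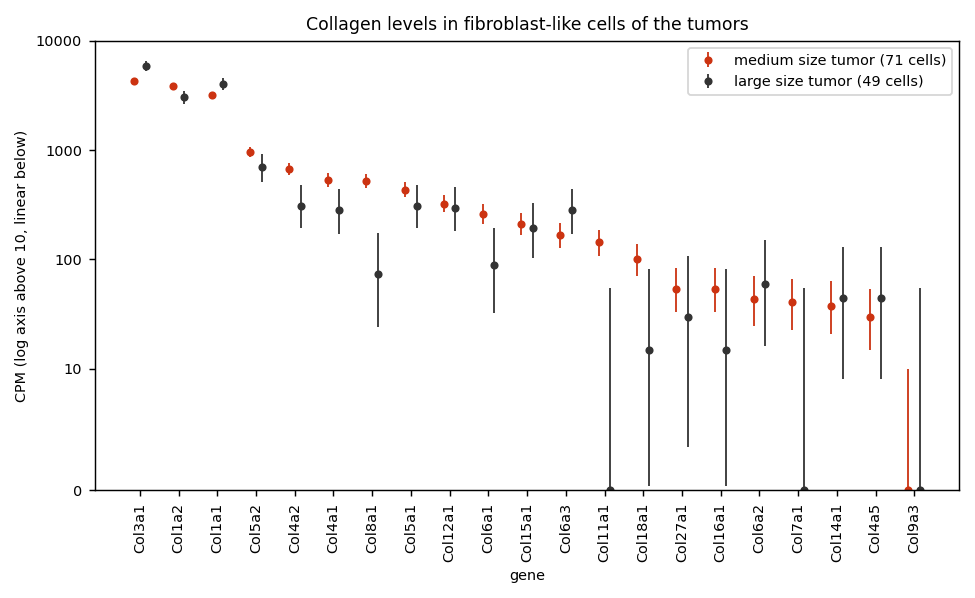
CPM of the described collagen genes and Col11a1 in fibroblast-like cells (vertical axis, log scale above 10 and linear below) of the medium tumor (red, 71 cells) and the large tumor (black, 49 cells), with exact 95% Poisson intervals. Col3a1 and Col1a1 lie higher in the large tumor, Col8a1 lower (74.0 against 521 CPM), and Col11a1 has no UMI there.

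The genes that make and bind collagen followed the fibrillar genes in part. Of 15 genes for hydroxylation and glycosylation of collagen chains 13 had at least 50 UMIs in the medium tumor, and 7 of these were at least 4-fold higher in fibroblast-like cells (against 4.47% of all genes with as many UMIs): P4ha2 and P4ha3 (proline hydroxylation), Plod1 and Plod2 (lysine hydroxylation) and P3h1, P3h3 and Crtap (proline 3-hydroxylation). Plod2 stood at 151 CPM, 41.8 times the level of the other cells (28.96 to 60.1). Of 9 genes listed under folding and export 4 were higher, namely Serpinh1 (the collagen chaperone HSP47), Fkbp10, Fkbp14 and the transcription factor Creb3l1. Of 7 measured genes for propeptide removal and crosslinking 5 were higher, namely Bmp1, Adamts2 and the lysyl oxidases Lox, Loxl1 and Loxl2. Lox stood at 364 CPM in fibroblast-like, 70.3 in mesothelial-like and 0.996 in epithelial-like cells.

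Mesothelial-like cells, in which 3.83% of all genes passed the same size, did so for 4 of the 13 (Plod2, P3h3, P3h4 and Crtap), 3 of the 9 (Serpinh1, Fkbp10 and Fkbp14) and 3 of the 7 (Adamts2, Lox and Loxl1). Endothelial-like cells passed it for Plod1, Serpinh1 and Fkbp10 (3.48% of all genes). Epithelial-like cells passed it for no gene of these 3 lists (3.11% of all genes) and were at least 4-fold lower for 10 of them (6.43% of all genes). Pcolce2 fell just short there at 3.995 times the level of the other cells (2.21 to 8.08), with 357 of its 368 UMIs in epithelial-like cells. Loxl4 had 46 of 47 UMIs in these cells but fell short of the minimum of 50 UMIs. Serpinh1 was at 885 CPM in fibroblast-like, 588 in mesothelial-like, 488 in endothelial-like, 59.2 in epithelial-like and 8.66 in macrophage-like cells. Its levels in the large tumor were 1597, 814, 61.9 and 10.2 CPM in fibroblast-like, endothelial-like, epithelial-like and macrophage-like cells, and of the 5, 6, 2 and 2 genes of the 4 lists with at least 50 UMIs there it was the 1 at least 4-fold higher in fibroblast-like cells (2.05% of all genes) and in endothelial-like cells (4.97%). Lox, with 48 of 49 UMIs in fibroblast-like cells there, fell short of the minimum of 50 UMIs. Of the 4 measured collagen receptors Itga2, the alpha 2 integrin chain that binds collagen, was the 1 gene higher in epithelial-like cells, which held 232 of its 236 UMIs. Itga1, the alpha 1 chain, was 4.03 times higher in fibroblast-like cells (1.80 to 7.92), from 9 UMIs.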

How the data were processed

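The authors processed the 10x libraries with Cell Ranger, named with the build mm10 and no version in the submitters' processing notes, and deposited 1 table of raw UMI counts per tumor (genes by barcodes) in which the 4 technical replicates are pooled. The counts were not normalized by the authors. How barcodes were told from empty droplets is not given in the sources used here, and no barcode was removed. Each tumor was clustered alone in Seurat 5.3.0 (R 4.3.3) with log normalization to 10000, 2000 variable genes, 10 principal components and a resolution of 0.8, without the collagen rows. A marker counted where 10% of a cluster's cells held it at 25% or more of its highest cluster level. A name needed 3 markers, and 60% of another class's markers left a cluster unnamed, except that smooth muscle and pericyte markers did not block the name fibroblast. These thresholds were set after marker values were seen, and the collagen rows, marker lists and pathway lists were chosen with earlier results of these data known. Levels are UMIs of a class per 1000000 of its UMIs (CPM). Totals were 20301669 and 2239012 UMIs. Intervals are exact binomial for shares, exact Poisson for levels and exact conditional for ratios at the 95% level, and read no variation between animals. The rule for named genes was at least 100 UMIs in the medium or 20 in the large tumor, which 20 collagen genes met, and a few sparser ones (Col10a1, Col11a1 and Col13a1) were named after their values were seen. Pathway genes past the 4-fold size were named. Doublets were scored with Scrublet in scanpy 1.11.5, which called 0 and 9 barcodes, and none was left out of the main values. The full genotype of the mice is not reported here. Positions come from GENCODE M21 (GRCm38), and promoter windows from RefSeq (GRCm38.p6). Alternatives included other cluster settings, classing cell by cell, thinning, subtraction of the macrophage level and TMM scaling (edgeR 4.0.16).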

Additional observations from a re-analysis of the deposited data

Results flagged for a closer look

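The level of Col27a1 in epithelial-like cells against all other cells lay on opposite sides of 1 in the tumors, a contrast that did not hold under the class calls named here. The level in epithelial-like cells was 2.03 times that of all other cells in the medium tumor (1.59 to 2.62) and 0.429 times in the large tumor (0.308 to 0.595). The difference between the tumors was not tested, since each size is 1 tumor. The medium value turned to 0.520 at a resolution of 1.2, and the large value turned to 5.35 at a resolution of 0.4, 5.34 with 20 principal components, 5.37 with collagen genes kept in the clustering and 1.17 with each cell classed on its own. In the large tumor the other cells include the unnamed cluster 1, which held 77 of the 154 Col27a1 UMIs. With that cluster counted as epithelial-like, an alternative chosen after the data were seen, the value there was 5.35.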

How the results depend on the processing

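Collagen levels were recomputed under 4 alternatives (averaged over cells, each cell classed on its own, without the highest Scrublet scores, without mural cells), and in all of them the fibroblast-like level stayed above the epithelial-like, mesothelial-like and endothelial-like ones, while shares moved with depth and class calls. In the medium tumor the epithelial-like share was 38.3% at a resolution of 1.2, 48.9% with each cell classed on its own, 44.5% without the highest 5% of Scrublet scores, 44.5% without mural cells, 40.5% without cluster 7, 31.9% with cells thinned and 39.5% with the macrophage level subtracted. The fibroblast-like share was 21.8% with each cell classed on its own, 36.9% without mural cells, 40.2% without cluster 7, 47.4% thinned and 41.7% with the macrophage level subtracted. The mesothelial-like share was 8.96% with each cell classed on its own, 12.9% with collagen genes kept in the clustering, 13.01% without cluster 7, 14.4% thinned and 13.3% with subtraction, and the endothelial-like share 6.42% with each cell classed on its own, 4.83% without the highest Scrublet scores and 4.84% with subtraction. Levels averaged over cells were 366, 17650 and 5256 CPM for epithelial-like, fibroblast-like and mesothelial-like cells, and 424, 18031, 5569 and, for endothelial-like cells, 6398 CPM with each cell classed on its own. Without the highest Scrublet scores the fibroblast-like and mesothelial-like levels were 17707 and 5398 CPM, and without mural cells the fibroblast-like level was 16722 CPM. Collagen genes higher in epithelial-like cells numbered 2 at a ratio of 2 (14.1% of all genes) and 3 without a filter (17% of all genes), and those in endothelial-like cells 9 without a filter (6.53%) and 8 with each cell classed on its own (4.99%). At a resolution of 0.4 the fibroblast-like and mesothelial-like cells gave no value.

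In the large tumor the epithelial-like share was 39.7% at a resolution of 0.4, with 20 principal components and with cluster 1 as epithelial-like, 39.0% with collagen genes kept in the clustering, 30.9% with each cell classed on its own, 20.1% thinned and 21.5% with subtraction. The fibroblast-like share was 29.6% with each cell classed on its own, below the epithelial-like share, and 62.4% thinned and 62.4% with subtraction. The fibroblast-like level was 17487 CPM averaged over cells, and the fibroblast-like and epithelial-like levels were 20702 and 369 CPM with each cell classed on its own. Collagen genes higher in fibroblast-like cells numbered 10 with at least 20 UMIs (3.86% of all genes) and 17 without a filter (8.78%), and 2 were higher in epithelial-like cells without a filter (16.4%).

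The ratio of Col27a1 in epithelial-like to other cells turned to 0.520 in the medium tumor at a resolution of 1.2. In the large tumor it turned to 5.35 at a resolution of 0.4, 5.34 with 20 principal components, 5.37 with collagen genes kept in the clustering, 5.35 with cluster 1 as epithelial-like and 1.17 with each cell classed on its own. The unnamed cells numbered 287 in place of 61 in the first of these and 0 in place of 272 in the first 3 of the large tumor. Leaving out mural cells, cluster 7 or clusters 4, 7 and 8 of the large tumor, calling cluster 1 epithelial-like and leaving out the shared barcodes were chosen after seeing the data. Of the other values for single genes, 304 moved by less than their interval and 73 by more. No paired analysis was possible because each tumor is 1 table in which the technical replicates are pooled, which also left no replicate to leave out. At a median of 1037 UMIs per cell, 26 collagen rows had a UMI in the large tumor, but only 8 had at least 50.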
